A study of Mus musculus with 8 samples.

Results

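The T cell receptor alpha chains described here carried 1 of the 2 segments of the invariant alpha chain, TRAV11 or TRAJ18, without the other. They were the productive TRA contigs labelled TRAV11 or TRAV11D with a J segment other than TRAJ18, or labelled TRAJ18 with another V segment, and 152 of the 12792 deposited contigs met this rule. They came from 151 cells in 103 clonotypes, a clonotype being the set of cells that the deposited tables group as 1 clone. TRAV11 with another J accounted for 17 contigs in 15 clonotypes, and TRAJ18 with another V for 135 contigs in 88 clonotypes. The 4 receptor libraries were made from brain parenchyma of C57BL/6 mice, from cells sorted for CD45, the surface protein common to white blood cells. A pair of libraries came from 5xFAD;Cxcr6-/- mice, which carry the 5xFAD transgenes and lack the chemokine receptor CXCR6, and a pair from 5xFAD mice with Cxcr6 intact. The 5xFAD line is a transgenic model that expresses its transgenes in neurons under the Thy1 promoter and develops amyloid plaques, so every library came from transgenic brain and no wild-type group was used here. Neither age nor sex is given in the labels, nor whether a library is 1 mouse or a pool, so p-values measure only the spread between libraries, which may be technical.

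Invariant natural killer T cells recognise lipids presented by CD1d through an alpha chain that joins TRAV11 to TRAJ18 with an almost fixed CDR3, the loop that spans the joint. In the mouse this chain pairs mainly with beta chains of TRBV13-2, TRBV29 or TRBV1. The same gene segments also take part in ordinary alpha chain rearrangement, where each V segment can be joined to each J segment and bases are removed and added at the joint. A T cell can rearrange both of its alpha loci, and so can carry a second productive alpha chain.

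All 3 segments lie on the plus strand of mouse chromosome 14 in GENCODE vM21 (GRCm38): TRAV11D at chr14:52824357-52824912, TRAV11 at chr14:53519303-53519859 and TRAJ18 at chr14:54200777-54200842. The deposited tables used the label TRAV11 for 481 contigs and TRAV11D for 0. The transcripts of these V copies are identical over the 342 bases compared, and 480 of the 481 contigs matched both over the V region, so TRAV11 below stands for either copy.

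The invariant loop and its germline parts are shown because the other loops are measured against them. Of 464 contigs that join TRAV11 to TRAJ18, 444 encoded the same 15 residues, and the commonest nucleotide version of that loop, in 172 contigs, is given first. Capitals mark the bases that match germline TRAJ18 in its first line, and the bases that match germline TRAV11 in its second. In the germline TRAJ18 exon capitals mark the 35 bases that belong to the CDR3, and TRAV11 contributes at most the 13 bases of the last line.
invariant, TRAJ18 bases: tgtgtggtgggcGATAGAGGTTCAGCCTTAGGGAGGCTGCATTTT
invariant, TRAV11 bases: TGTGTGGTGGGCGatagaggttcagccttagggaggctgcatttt
germline TRAJ18: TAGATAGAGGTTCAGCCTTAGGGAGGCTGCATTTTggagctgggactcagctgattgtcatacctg
germline TRAV11 end: TGTGTGGTGGGCG

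The first 3 TRAJ18 chains below encode the loops closest to the invariant one, the next belongs to the largest clonotype, and the last 3 recur in several clonotypes. Capitals mark the bases that match germline TRAJ18.
TRAV9D-3: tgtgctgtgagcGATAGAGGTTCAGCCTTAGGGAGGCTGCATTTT
TRAV3D-3: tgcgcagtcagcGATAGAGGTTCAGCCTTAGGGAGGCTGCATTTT
TRAV7D-3: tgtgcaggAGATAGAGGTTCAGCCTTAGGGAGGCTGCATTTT
TRAV13-2: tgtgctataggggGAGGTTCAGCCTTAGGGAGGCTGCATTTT
TRAV13-1: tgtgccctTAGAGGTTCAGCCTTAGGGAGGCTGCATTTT
TRAV5D-4: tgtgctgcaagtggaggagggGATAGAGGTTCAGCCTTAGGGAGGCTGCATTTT
TRAV7-5 and TRAV7D-5: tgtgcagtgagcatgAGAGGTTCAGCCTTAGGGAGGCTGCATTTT

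The TRAV11 chains below are, in this order, the loop nearest to the invariant one, the chains of both expanded clonotypes, and the TRAJ17 loops of 5xFAD;Cxcr6-/- libraries 1 and 2. Capitals mark the bases that match germline TRAV11.
TRAJ32, nearest: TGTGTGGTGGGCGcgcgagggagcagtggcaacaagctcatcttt
TRAJ27, expanded: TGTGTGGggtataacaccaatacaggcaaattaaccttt
TRAJ32, expanded: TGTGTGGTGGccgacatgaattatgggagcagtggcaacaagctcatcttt
TRAJ17, library 1: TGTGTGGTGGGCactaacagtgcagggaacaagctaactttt
TRAJ17, library 2: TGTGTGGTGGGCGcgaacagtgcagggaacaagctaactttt

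The 2 5xFAD;Cxcr6-/- libraries held 13460 and 22340 UMIs (unique molecular identifiers, which count captured molecules), and the 2 5xFAD libraries 32169 and 34772. A productive TRA was seen in 648 and 1127 barcodes of the 5xFAD;Cxcr6-/- libraries, against 1656 and 2057 of the 5xFAD libraries. The median TRA contig had 4 UMIs in each library. Pairs of libraries shared 0 to 12 cell barcodes, never with a shared CDR3, and 2 of the 151 cells had a barcode that also occurred in another library.

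TRAJ18 joined to another V segment did not separate the genotypes. It was carried by 15 cells (2.31%) and 27 cells (2.40%) of 5xFAD;Cxcr6-/- libraries 1 and 2, and by 57 cells (3.44%) and 35 cells (1.70%) of 5xFAD libraries 1 and 2. The 5xFAD libraries lay on either side of both 5xFAD;Cxcr6-/- libraries, and the means were 2.36 ± 0.0572% and 2.57 ± 1.23% (SD, n = 2 each; difference -0.216 percentage points, exact two-sided permutation p = 1). With 2 libraries against 2 the test cannot give a p below 0.33. The direction of this difference rested on a single clonotype: without it 5xFAD library 1 had 26 of 1625 cells (1.6%) and the difference was 0.705 percentage points.

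Counted once per clonotype, the chains with TRAJ18 and another V made up 13 of 485 (2.68%) and 21 of 901 clonotypes (2.33%) in 5xFAD;Cxcr6-/- brain, against 27 of 1061 (2.54%) and 27 of 1274 (2.12%) in 5xFAD brain. The ranges overlapped, with a difference of 0.174 percentage points (exact two-sided permutation p = 0.667). The sign of this small difference turned when clonotypes with the invariant chain were left out of the denominator (-0.139) and with other counting choices. Each 95% Clopper-Pearson interval held the values of the other 3 libraries, and these intervals cover counting error only.

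TRAV11 joined to another J segment was rarer. It was found in 2 cells of each 5xFAD;Cxcr6-/- library (0.309% and 0.177%), and in 6 and 7 cells of the 5xFAD libraries (0.362% and 0.340%). Both 5xFAD values lay above both 5xFAD;Cxcr6-/- values, with a difference of -0.108 percentage points (exact two-sided permutation p = 0.33, the smallest possible). It was -0.174 without 5xFAD;Cxcr6-/- library 1 and -0.0427 without 5xFAD;Cxcr6-/- library 2. By clonotype the groups overlapped, with 2 (0.412%) and 2 (0.222%) in 5xFAD;Cxcr6-/- brain against 4 (0.377%) and 7 (0.549%) in 5xFAD brain (difference -0.146 percentage points, p = 0.667 in the same exact test). This difference was -0.241 and -0.0509 without 5xFAD;Cxcr6-/- library 1 or 2, and -0.232 and -0.0598 without 5xFAD library 1 or 2. At 2 to 7 cells per library the 95% intervals for the share of cells ran from as low as 0.0215% to as high as 1.11%, and a difference of this size was not detectable at this depth.

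**Figure D1:**
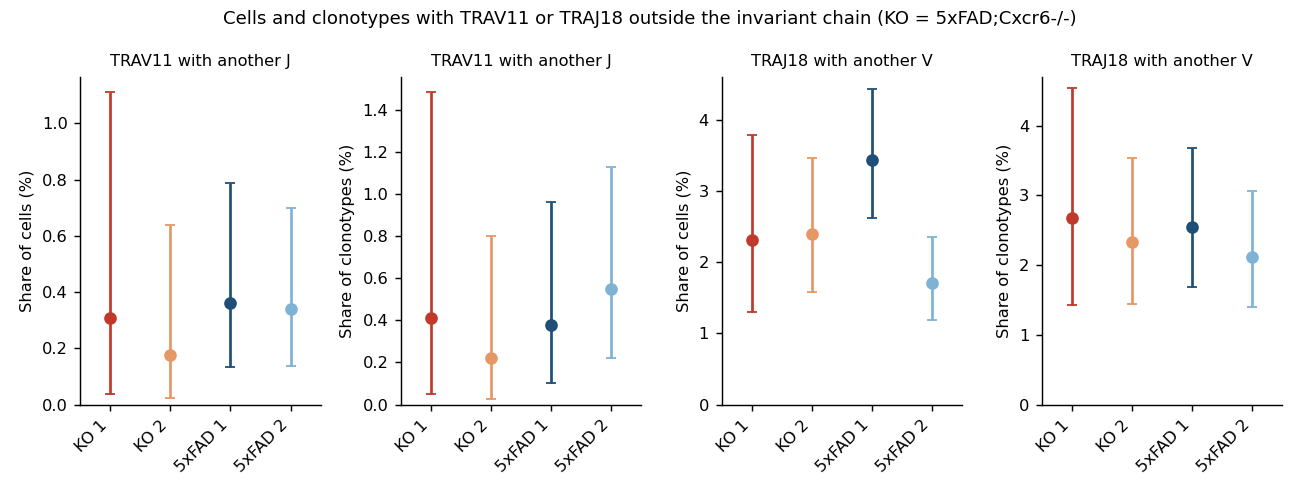
Share of cells and of clonotypes (%) with TRAV11 and another J or with TRAJ18 and another V, in each of the 4 libraries (KO = 5xFAD;Cxcr6-/-); points are the shares and bars the 95% Clopper-Pearson intervals. The cell share of TRAJ18 with another V ran from 1.70% to 3.44%, both in 5xFAD libraries, and its clonotype share from 2.12% to 2.68%.

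The invariant chain itself was carried by 25 and 22 cells of the 5xFAD;Cxcr6-/- libraries (3.86% and 1.95%), against 240 and 177 cells of the 5xFAD libraries (14.5% and 8.60%). Of all TRAJ18 chains, the part with another V was 13 of 38 (34.2%) and 21 of 43 (48.8%) in 5xFAD;Cxcr6-/- brain, against 27 of 239 (11.3%) and 28 of 191 (14.7%) in 5xFAD brain. For TRAV11 with another J the part was 2 of 27 and 2 of 24 chains in 5xFAD;Cxcr6-/- brain, against 4 of 216 and 7 of 170 in 5xFAD brain. Over the 4 libraries 17.4% of TRAJ18 chains lacked TRAV11, and 3.43% of TRAV11 chains lacked TRAJ18. These parts have the invariant chains in their denominator, at 25 and 22 in 5xFAD;Cxcr6-/- brain against 212 and 163 in 5xFAD brain. They are no measure of a rise in either kind, whose shares of all clonotypes overlapped between the genotypes.

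With the invariant chains taken out, edgeR's quasi-likelihood test called none of the 152 V and J segments tested between the genotypes (percent called 0; 8 segments had an unadjusted p under 0.05, and DESeq2 called 0 with 0 at that level). TRAJ18 was used by 2.60 ± 0.296% of the remaining clonotypes in 5xFAD;Cxcr6-/- brain and by 2.76 ± 0.517% in 5xFAD brain (SD, n = 2 each), a log2 fold change of -0.10 (SE 0.31, adjusted p = 0.95, edgeR). TRAV11 was used by 0.330 ± 0.145% of them in 5xFAD;Cxcr6-/- brain and by 0.543 ± 0.112% in 5xFAD brain, a log2 fold change of -0.86 (SE 0.97, adjusted p = 0.909, edgeR). This log2 fold change was -0.34 without 5xFAD;Cxcr6-/- library 2 and -1.23 without 5xFAD;Cxcr6-/- library 1. TRAJ18 was thus of middling use, in place 19 of 43 J segments, while TRAV11 stood in place 69 of 88 V labels.

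Among the 3 J segments on either side of TRAJ18, TRAJ16 had the log2 fold change of largest size, -1.37 (SE 0.54), which did not pass (adjusted p = 0.776, edgeR). TRAJ16 was seen in 2 and 7 clonotypes of the 5xFAD;Cxcr6-/- libraries, against 18 and 17 of the 5xFAD libraries. The log2 fold changes of the other neighbours were 0.34 for TRAJ17, 0.37 for TRAJ15, -0.20 for TRAJ21, -0.23 for TRAJ23 and close to 0 for TRAJ22 (adjusted p of 0.909 or more, edgeR).

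TRAJ18 was joined to 42 different V labels of 12 families, against 87 labels in chains with neither segment. TRAV6-6 came first with 7 of the 89 clonotype chains (7.87%, against 4.34% of the 3615 other chains), a clonotype chain being a distinct chain counted once per clonotype. TRAV13-1, TRAV3D-3 and TRAV7D-2 followed with 5 each, though clonotypes with TRAV13-1 and with TRAV3D-3 may include split clones, as described below. TRAV10, TRAV12D-3, TRAV13N-3, TRAV14D-2, TRAV4D-4, TRAV5-1, TRAV6N-6, TRAV8N-2 and TRAV9D-3 had 3 each, and all 3 chains with TRAV13N-3 came from 5xFAD library 2. Many V labels name near-identical copies, so a label within a family is less certain than the family.

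By family, TRAV6 took 16 of the 89 chains (17.98%, against 14.1% of other chains) and TRAV13 took 14 (15.7%, against 9.85%). Both other shares lay within the 95% intervals of the TRAJ18 shares. The TRAV13 chains were spread unevenly over libraries, at 0 of 13 chains and 4.76% in 5xFAD;Cxcr6-/- brain against 11.1% and 35.7% in 5xFAD brain. The 35.7% includes 3 TRAV13-1 clonotypes that may be 1 split clone, as described below. TRAV12 was absent from the TRAJ18 chains of both 5xFAD;Cxcr6-/- libraries, against 18.5% and 17.9% in the 5xFAD libraries. By an approximate limit, 3 divided by the number of chains, 0 of 13 and 0 of 21 chains allow up to 23.1% and 14.3%. Among other chains of the 5xFAD;Cxcr6-/- libraries the TRAV12 share was 9.8% and 12.6%, which lies within these limits. TRAV16 gave 1 chain (1.12%), and its share among other chains, 6.25%, lay just above the interval's upper bound of 6.10%. No test was made of single families.

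**Figure D2:**
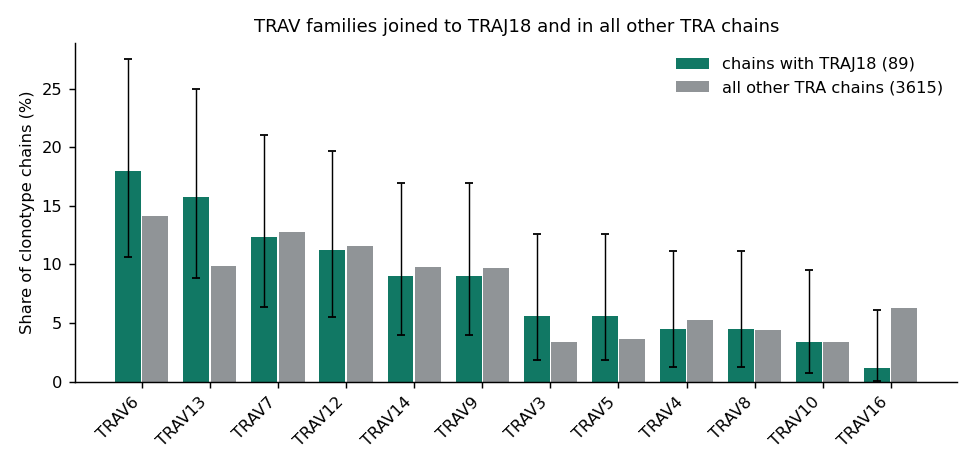
Share of clonotype chains (%) by TRAV family for chains with TRAJ18 and another V (left bar of each pair, with its 95% Clopper-Pearson interval) and for the 3615 chains with neither segment (right bar). TRAV6 led in both, with 17.98% and 14.1%.

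The V partners of TRAJ18 lay a median of 906 kb upstream of it. For the 3615 other chains the V segments lay a median of 772 kb from TRAJ18, and for chains with the nearby TRAJ17 or TRAJ21 a median of 1087 kb. In the single libraries the TRAJ18 median was 906 and 1210 kb in 5xFAD;Cxcr6-/- brain, against 710 and 864 kb in 5xFAD brain. The order against other chains did not hold in 5xFAD library 1, where other chains had 831 kb. The order against TRAJ17 and TRAJ21 did not hold in 5xFAD;Cxcr6-/- library 2, where their chains had 987 kb. The J partners of TRAV11 were 10 segments numbered 17 to 50, with a median of 32, against 30 in other chains. TRAJ27 and TRAJ32 were used by 3 clonotypes each, all of them in 5xFAD brain, and TRAJ17 by 1 in each 5xFAD;Cxcr6-/- library. Among other chains TRAJ27 made up 3.82%, TRAJ32 3.02% and TRAJ17 2.32%. The 5xFAD libraries gave 11 of the 15 TRAV11 chains, so no genotype difference in J partners can be read from these counts.

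TRAJ18 was trimmed more outside the invariant chain than within it. A median of 5 of its germline bases was missing at the joint in the 89 chains with another V (6 and 5 in the 5xFAD;Cxcr6-/- libraries, 5 and 5 in the 5xFAD libraries), against 2 in the 422 invariant chains. The invariant loop is almost fixed, so this difference is given as a description, with no test. Ordinary chains of the neighbouring J segments lacked a median of 4 bases for TRAJ15, 2 for TRAJ16, 4.5 for TRAJ17, 1 for TRAJ21, 1 for TRAJ22 and 2 for TRAJ23. TRAJ18 also has the longest CDR3 part of these segments, 35 bases against 26 to 32.

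At the protein level, 16 of the 89 chains ended in all 11 residues that TRAJ18 gives to the invariant loop, 38 in the last 10 of them, 33 in the last 9 and 2 in the last 8. A residue counted here can also be encoded by bases added at the joint. The full stretch was present in 3 of 13 and 6 of 21 chains of the 5xFAD;Cxcr6-/- libraries, against 5 of 27 and 2 of 28 chains of the 5xFAD libraries. TRAV11 had lost a median of 2 of its 13 CDR3 bases both with another J (range 0 to 6) and in the invariant chain (range 0 to 7). Of the 15 chains with TRAV11 and another J, 9 began with the same 4 residues as the invariant loop. So did 402 of 422 invariant chains and 0 of 3615 other chains. Germline TRAV11 encodes these 4 residues, so this likeness is partly set by the choice of these chains. These 9 were all 4 chains of the 5xFAD;Cxcr6-/- libraries and 0 of 4 and 5 of 7 chains of 5xFAD libraries 1 and 2.

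**Figure D3:**
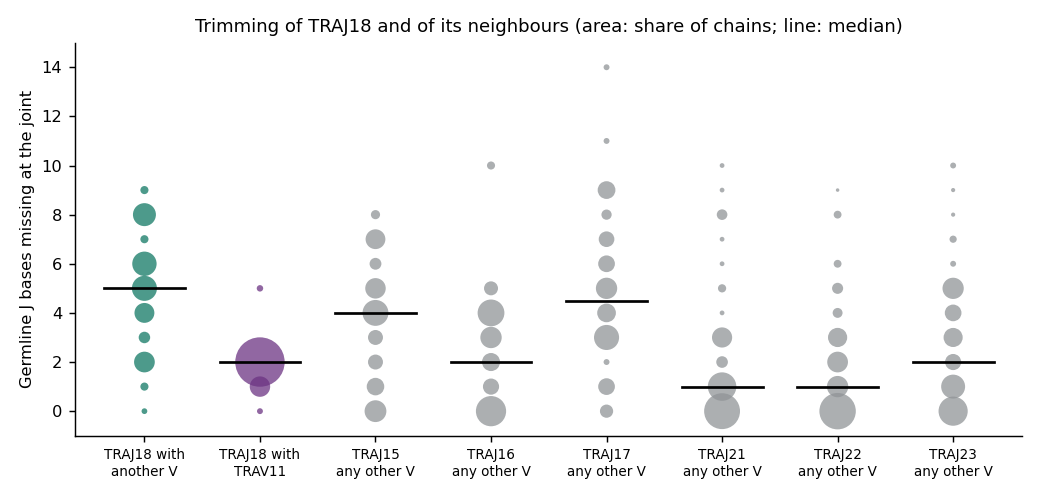
Germline J bases missing at the joint for TRAJ18 with another V, for TRAJ18 in the invariant chain, and for the 6 neighbouring J segments with any V but TRAV11; the area of a disc is the share of chains and the line the median. TRAJ18 with another V has a median of 5 bases and the invariant chain a median of 2.

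Loops with TRAJ18 and another V were longer than other TRA loops in each library. Their mean length was 14.5 ± 1.25 residues (SD over 89 chains), against 13.6 ± 1.37 over 3615 other chains. The difference was 0.80 and 1.29 residues in the 5xFAD;Cxcr6-/- libraries and 0.59 and 0.69 in the 5xFAD libraries (mean 0.845, exact two-sided sign-flip test over 4 libraries p = 0.13, the smallest possible). Of these loops 27 (30.3%) had the 15 residues of the invariant loop, against 569 (15.7%) of other loops. The long germline part of TRAJ18 goes with the choice of these chains, and its share in the length difference was not tested. Loops with TRAV11 and another J did not differ in a steady direction, at 1.34 and -0.11 residues against other loops in 5xFAD;Cxcr6-/- brain and -0.13 and 0.05 in 5xFAD brain (mean 0.287, exact sign-flip p = 0.875), and without 5xFAD;Cxcr6-/- library 1 the mean was -0.0641.

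Likeness to the invariant loop was counted in amino-acid edits, the substitutions, insertions and deletions needed to turn a loop into the commonest invariant one. Chains with TRAJ18 and another V lay a median of 4 edits away (range 2 to 6), chains with TRAV11 and another J a median of 8 (range 6 to 10), and other chains a median of 10 (range 7 to 15). Sharing a segment with the invariant chain shortens this distance by construction, so the values are descriptive. Of the 89 TRAJ18 loops, 5 lay within 2 edits, 18 within 3 and 62 within 4. The 5 may count a split clone more than once, as described below. Of the 3615 other loops 0 lay within 4, which by the approximate limit used above allows a share of up to 0.083%. Outside the shared segment the values lay closer together. The first 4 residues of TRAJ18 loops differed from those of the invariant loop at a mean of 2.69 positions, against 2.68 in other loops, and the last 9 residues of TRAV11 loops differed from those of the invariant loop at a mean of 6.0 positions, against 6.64.

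**Figure D4:**
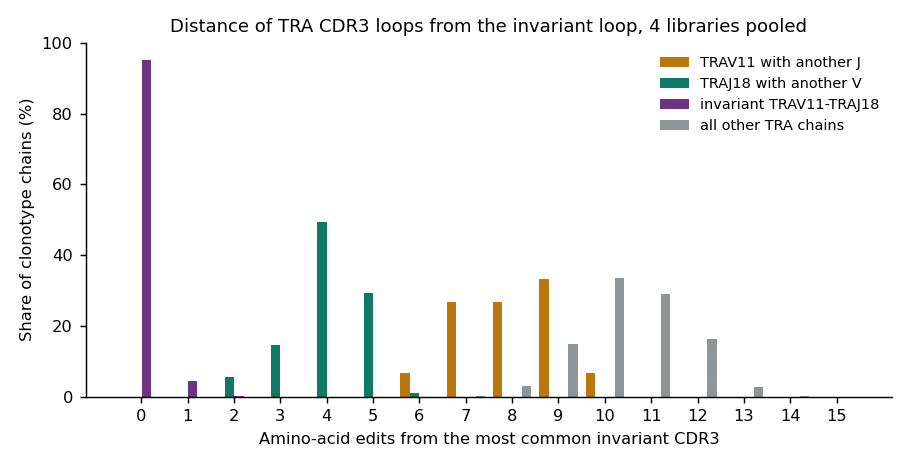
Share of clonotype chains (%) at each number of amino-acid edits from the invariant loop, with the 4 libraries pooled, for TRAV11 with another J, TRAJ18 with another V, the invariant chains and all other TRA chains. The medians are 8, 4, 0 and 10 edits.

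The closest loops lay at 2 edits and came from TRAV3D-3, TRAV9D-3 and TRAV7D-3. The TRAV3D-3 and TRAV9D-3 chains shown above encode the same 15 residues from different nucleotides, and that loop was found in 4 clonotypes of 7 cells, in 5xFAD;Cxcr6-/- library 2 and in 5xFAD library 1. With TRAV3D-3 it had the same nucleotides in both genotypes, beside a TRBV3 chain in 5xFAD;Cxcr6-/- library 2 and beside a TRBV5 chain in 1 cell of 5xFAD library 1. In 5xFAD;Cxcr6-/- library 2 a clonotype of 4 cells and a clonotype of 1 cell had the same TRBV3 loop. The single cell also held another TRA and a TRBV20 chain. Whether it belongs to the same clone, split in the deposited tables, or is a doublet was not tested. With TRAV9D-3 the loop stood beside TRBV12-2 in 1 cell of 5xFAD library 1. The TRAV7D-3 loop was found in 1 cell of 5xFAD;Cxcr6-/- library 2, which also held another TRA and 2 TRB chains. None of these loops stood beside a TRBV13-2, TRBV29 or TRBV1 chain. Among clonotypes with other chains and exactly 1 TRB, these segments made up 10.1%, 4.87% and 5.18%. With so few clonotypes, no lack of these partners can be read from this.

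A further 4 loops occurred in 2 libraries. The share of other TRA loops that recur was not counted, so recurrence is no result about TRAJ18 loops. The 13-residue loop of the TRAV13-1 chain shown above was made by TRAV13-1, TRAV6N-6 and TRAV12D-1 in 5 clonotypes of the 5xFAD libraries. The 3 clonotypes with TRAV13-1 in 5xFAD library 2 shared the TRA nucleotides and had the same TRB loop or no TRB, so they may be 1 clone that the deposited tables split. Another loop of 13 residues arose from TRAV14-1, TRAV14-2 and TRAV7D-2, and a loop of 14 residues from TRAV6-6 with 3 different nucleotide versions, each in 3 clonotypes of the 5xFAD libraries. The loop labelled TRAV7-5 in 1 clonotype of 5xFAD;Cxcr6-/- library 1 had the same nucleotides as that labelled TRAV7D-5 in 1 clonotype of 5xFAD library 2, beside TRBV16 and TRBV1. The TRAV5D-4 loop, at 18 residues the longest with TRAJ18, occurred with the same nucleotides beside TRBV13-2 and beside TRBV2 within 5xFAD;Cxcr6-/- library 2. The clonotype with TRBV13-2 had 3 cells, and that with TRBV2 was 1 cell that also held TRAV12D-3 with TRAJ22. Whether these arose independently was not tested.

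No loop with TRAV11 and another J was found in more than 1 clonotype, a count that likewise has no matching share for other loops. The nearest to the invariant loop, at 6 edits, joined TRAJ32 in 5xFAD library 2. In the 5xFAD;Cxcr6-/- libraries the loops joined TRAJ50 (16 residues) and TRAJ17 (14 residues) in library 1, and TRAJ17 (14 residues) and TRAJ26 (13 residues) in library 2. The loops of 5xFAD library 1 joined TRAJ27 (13 residues), TRAJ32 (17), TRAJ35 (12) and TRAJ31 (12). Those of 5xFAD library 2 joined TRAJ32 (15 and 14 residues), TRAJ38 (15), TRAJ39 (15), TRAJ34 (12) and TRAJ27 (12 and 13).

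The beta chains beside TRAJ18 with another V came from many TRBV segments. Among clonotypes with exactly 1 TRB, TRBV13-2, the chief invariant partner (counted under both of its deposited labels), stood beside TRAJ18 with another V in 2 of 13 and 1 of 18 clonotypes of the 5xFAD;Cxcr6-/- libraries, against 4 of 22 and 4 of 24 of the 5xFAD libraries. Together this was 11 of 77 (14.3%), against 292 of 2895 clonotypes with other chains (10.1%) and 199 of 378 invariant clonotypes (52.6%). In 5xFAD library 2 the 4 clonotypes include TRAV13-1 clonotypes with the same TRB loop, which may be a split clone. The difference from other chains was 3.19 and -4.91 percentage points in 5xFAD;Cxcr6-/- brain and 9.87 and 6.44 in 5xFAD brain (mean 3.65, exact two-sided sign-flip p = 0.375). This mean was 6.50 without 5xFAD;Cxcr6-/- library 2 and 1.57 without 5xFAD library 1. TRBV29 was found in 5 of the 77 (6.49%, against 4.87% with other chains) and TRBV1 in 2 (2.60%, against 5.18%).

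The other frequent beta segments beside TRAJ18 were TRBV12-1 with 7 clonotypes, TRBV19 with 6 and TRBV5 with 5. Beside TRAV11 with another J, TRBV19 was found in 4 of 15 clonotypes, TRBV3 in 3, TRBV13-2 in 2, and TRBV29 and TRBV1 in 1 each. Apart from 1 clonotype, described below, that itself held an invariant chain, none of the TRB chains beside either kind was also found in an invariant clonotype of its library. The matching share for TRB chains beside other TRA chains was not counted, so this count is no result about either kind. All 15 TRAV11 clonotypes had exactly 1 TRB, while 8 of the 88 TRAJ18 clonotypes had 2 TRB chains and 3 had none.

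Most clonotypes of both kinds were single cells. With TRAJ18 and another V, 1 of 13 and 3 of 21 clonotypes of the 5xFAD;Cxcr6-/- libraries had 2 or more cells, against 1 of 27 and 7 of 27 of the 5xFAD libraries. Set against the clonotypes with other chains the share differed by -6.02 and 2.95 percentage points in 5xFAD;Cxcr6-/- brain, and by -11.7 and 5.13 in 5xFAD brain (mean -2.40, exact two-sided sign-flip p = 0.625). With barcodes of exactly 1 TRB and 1 or 2 TRA chains alone the mean was -0.223. Over all libraries 12 of 88 (13.6%) were expanded, against 508 of 3197 (15.9%) with other chains and 24 of 421 (5.70%) with the invariant chain. Expansion of these clonotypes thus did not differ from that of other chains beyond the spread between libraries.

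A single TRAJ18 clonotype stood far above the others in size. It had 34 cells in 5xFAD library 1, of which 31 carried the TRAV13-2 contig shown above, beside a beta chain of TRBV12-1 and TRBJ2-7. The largest TRAJ18 clonotypes of the other libraries had 3 cells in 5xFAD;Cxcr6-/- library 1 (TRAV4D-4), 4 cells in 5xFAD;Cxcr6-/- library 2 (TRAV3D-3) and 3 cells in 5xFAD library 2 (TRAV13-1 and TRAV13N-1). Both expanded clonotypes with TRAV11 and another J were in 5xFAD library 1, with 4 cells (TRAJ27) and 2 cells (TRAJ32).

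Chains with TRAV11 and another J mostly shared their clonotype with another productive TRA. This was so for 2 of 2 and 1 of 2 chains of the 5xFAD;Cxcr6-/- libraries, and for 4 of 4 and 4 of 7 chains of the 5xFAD libraries. Together this was 11 of 15 (73.3%, 95% interval 44.9% to 92.2%), against 772 of 3615 other chains (21.4%) and 32 of 422 invariant chains (7.58%). Each library showed the excess over other chains, at 79.4 and 31.7 percentage points in 5xFAD;Cxcr6-/- brain and 75.1 and 35.8 in 5xFAD brain (mean 55.5, exact two-sided sign-flip p = 0.13, the smallest that 4 libraries allow). This test was added after the counts were seen.

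Of the 75 V labels with at least 10 such chains, TRAV11 had the highest share with a second TRA, and the median label had 20.5%. The next were TRAV15D-1-DV6D-1 with 7 of 11 and TRAV13N-3 with 8 of 13. The 12 cells in question held a partner TRA with neither TRAV11 nor TRAJ18, such as TRAV10 with TRAJ31 or TRAV10D with TRAJ17. The TRAV11 chain had fewer UMIs than its partner in 5 of them, as many in 4 and more in 3. Neither chain of a cell was regularly the one with fewer UMIs. Of the 17 TRAV11 contigs 6 (35.3%) had under 3 UMIs, against 26.0% of other TRA contigs, and with at least 3 UMIs required the mean excess was 37.3 percentage points (exact sign-flip p = 0.25). This p lies above the smallest possible, so not each library kept the excess.

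For TRAJ18 with another V the excess of a second TRA was small and changed sign between libraries. The counts were 2 of 13 and 6 of 21 in the 5xFAD;Cxcr6-/- libraries, against 6 of 27 and 10 of 28 in the 5xFAD libraries, or 24 of 89 (27.0%) in all. The difference from other chains was -5.22 and 10.3 percentage points in 5xFAD;Cxcr6-/- brain and -2.67 and 14.4 in 5xFAD brain (mean 4.20, exact two-sided sign-flip p = 0.5). Each library left out moved this mean, to 7.34 and 2.18 without 5xFAD;Cxcr6-/- library 1 or 2, and to 6.50 and 0.799 without 5xFAD library 1 or 2. TRAJ18 held place 8 among 43 J segments. In the 27 cells concerned, 28 TRAJ18 chains stood beside another TRA, and had fewer UMIs than it in 11 cases, as many in 4 and more in 13. A cell with 2 TRAJ18 chains counts once as fewer and once as more.

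A chain of either kind and the invariant chain were found together in 1 clonotype. It was a single cell of 5xFAD library 1 with TRAV13-1 joined to TRAJ18, the commonest invariant loop and 2 TRB chains, from TRBV13-2 and TRBV29. No doublet caller was run, and whether this barcode held 1 cell or more was not tested. Another single cell, in 5xFAD library 2, held 2 different TRAJ18 chains, with TRAV7D-2 and TRAV8N-2, beside 1 TRB of TRBV19. No clonotype held an invariant chain beside TRAV11 with another J. Of the 464 cells with an invariant chain, 33 (7.11%) held another TRA of any kind. The share of other chains that stand beside an invariant chain was not counted, so these counts are no result about either kind.

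**Figure D5:**
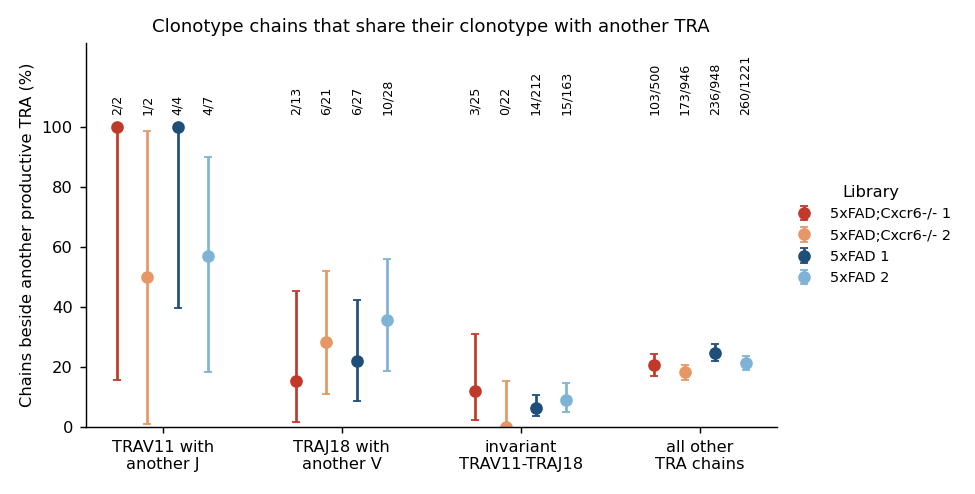
Share of clonotype chains (%) that share their clonotype with another productive TRA, by kind of chain and library; points are shares, bars 95% Clopper-Pearson intervals, and the counts stand above. TRAV11 with another J lies between 50% and 100% in each library, and all other TRA chains lie between 18.3% and 24.9%.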

How the data were processed

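Per the file headers, the deposited values are raw UMI and read counts of each assembled contig. The submitters' processing notes name Cell Ranger 6.0 and mm10. The kit, 10x Chromium Single Cell Immune Profiling v2, is named per the labels' protocols. All 12792 contigs were TRA or TRB. Gene expression, on 4 further samples, was not used here, so cell types were not checked against expressed markers. Chains were compared within libraries after counting each distinct chain once per deposited clonotype. Other chains are those with neither TRAV11 nor TRAJ18. No doublet caller was run: barcodes with 2 TRB chains were kept, and an alternative used only those with 1 TRB and 1 or 2 TRA. Shares carry 95% Clopper-Pearson intervals. Genotypes were compared by exact two-sided permutation tests over libraries, and kinds of chain by exact sign-flip tests of the differences within libraries.

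Segments with at least 10 clonotypes outside the invariant chain were tested with edgeR 4.0.16 (DESeq2 1.42.0 as an alternative), with the clonotype total as offset and Benjamini-Hochberg adjustment at 0.05. The script was tested on simulated data, with changes placed only in segments that had more clonotypes than TRAV11 outside the invariant chain. Recovery of a change in a segment as rare as TRAV11 was thus not tested. Alternatives changed the denominator, the cells and UMIs required, the clone definition, the unit, the tool and scaling, and left out each library. Germline ends, positions and sequences came from GENCODE vM21. Same-numbered libraries did not deviate together (r = -0.083 over 152 segments), so the numbers were not taken to pair them.

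The named segments were TRAV11, TRAV11D, TRAJ18, its 3 neighbours on each side, partners with 3 or more clonotypes, the known TRB partners and the TRBV most used. The named chains were all those with TRAV11 and another J, the largest TRAJ18 clonotype of each library, and loops that recurred across libraries or lay within 2 edits. The recurring TRAV5D-4 loop, the cells with 2 TRAJ18 chains or an invariant chain, TRAV15D-1-DV6D-1, TRAV families and the second-TRA test for TRAV11 fall outside these rules and were chosen once their values were known. The members and lists were chosen with earlier results of these data known.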

Additional observations from a re-analysis of the deposited data

How the results depend on the processing

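Of the alternative values for the main comparisons, 88 kept their direction, or for counts of segments stayed within 1.5 times, 10 changed sign and 1 moved. The exact tests of library values could not pass 0.05 under any alternative, so their side of it says nothing about stability. The genotype difference in the share of cells with TRAJ18 and another V (-0.216 percentage points) was 0.705 without the largest clonotype, an alternative chosen after seeing the data, and ranged from -1.09 to 0.654 when each library was left out in turn. By clonotype (0.174) it was -0.139 without invariant clonotypes, -0.0871 with at least 3 UMIs per contig, -0.206 with distinct chains counted once, and -0.0392 to 0.386 with a library left out. These differences lie within the spread between libraries, and the cause of the sign changes was not tested. The length difference of TRAV11 loops ranged from -0.0641 to 0.426 residues with a library left out. The expanded share of TRAJ18 clonotypes against other clonotypes (-2.40) was 0.0299 at 3 or more cells, and -4.91 to 0.689 with a library left out. With invariant chains kept, edgeR called 2 segments in place of 0. These were TRAV11 (log2 fold change -2.14, adjusted p = 0.00037, edgeR) and TRAJ18 (-1.63, adjusted p = 0.00107, edgeR). That alternative counts each invariant chain under both segments. Invariant chains were in 25 of 485 and 22 of 901 clonotypes of the 5xFAD;Cxcr6-/- libraries. In the 5xFAD libraries the counts were 212 of 1061 and 163 of 1274. Outside the invariant chain the log2 fold change of TRAJ18 (-0.10) was 0.048 without 5xFAD;Cxcr6-/- library 2 and ranged from -0.30 to 0.085 over the libraries left out, the highest being without 5xFAD library 1. With the replicate number as a block edgeR called 0 segments, and the log2 fold changes were -0.07 for TRAJ18 and -0.85 for TRAV11. The edit distances kept their sign in each alternative run, and these values are among the 88. Sharing a segment with the invariant chain shortens the distance by construction, so this says nothing about stability. For TRAV11 loops of the invariant length only 1 library gave a value. At 2 libraries per genotype, and 2 to 7 clonotypes with TRAV11 and another J in each, only large differences could be detected.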
